A study of Mus musculus with 20 samples.

Results

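Col1a1, Col1a2, Col3a1, Col5a1, Col6a1, Lum, Dcn, Aspn, Postn and Fn1 were followed here as a set of 10 fibroblast collagen and matrix genes, out of 17097 genes measured. The set is a list of gene names with no threshold on a measured value, drawn up with earlier results of these data known. Each gene was represented by the probe set that is listed with its symbol alone and has the highest mean over all 20 arrays, and all 10 genes had one. The RNA came from CD44+CD8+ effector T cells purified from mouse lungs bearing 4T1, a mouse mammary carcinoma line. The treatment was given intranasally. The 4 groups were saline as the control (Saline-CTRL, 5 arrays), SD-101, a ligand of the DNA sensor TLR9 (6 arrays), SD-101 with an antibody against PD-1, an inhibitory receptor of T cells (SD-101+anti-PD-1, 5 arrays, called the combination here), and the same pair with a-CD4, which the labels name without describing it (SD-101+anti-PD-1+a-CD4, 4 arrays, called the triple treatment). The labels give no strain, age, dose or treatment time, and all groups carried tumour. Whether each array stands for its own mouse is not stated, and the p-values cover only array-to-array spread, which may be technical.

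Collagens are built from 3 chains wound into a helix, and collagen types I, III and V assemble into the fibrils of connective tissue, while type VI forms a fine network beside cells. Small leucine-rich proteoglycans such as decorin, lumican and asporin bind fibrils and set how they assemble, and fibronectin and periostin link fibrils to cells and to each other. Fibroblasts, smooth muscle cells and mesothelial cells are the main makers of these proteins in lung, and T cells are not known as a source.

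The T cell genes of the sort were present in every group. Cd8a averaged 10.80 on the log2 scale of the deposited values and Cd44 averaged 9.66, while Cd4 averaged 3.13. Of the genes commonly used to mark fibroblasts, the receptor gene Pdgfra averaged 4.13 and ranged from 2.98 to 4.80, Inmt, a methyltransferase gene of alveolar fibroblasts, averaged 10.26, and S100a4, which T cells and macrophages also express, averaged 10.86. In RNA from a sorted bulk sample, more cells of a type and more RNA per cell cannot be told apart.

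Promoter sequences are shown for 4 of the genes because Col3a1, Col5a1 and Col6a1 moved together from array to array and Aspn did not follow them. They are the 150 bases before the start of each gene, 5′ to 3′ on the gene's strand, from RefSeq on GRCm38.p6, at chr1:45311388-45311537 on the plus strand for Col3a1, chr2:27886275-27886424 on the plus strand for Col5a1, chr10:76726045-76726194 on the minus strand for Col6a1 and chr13:49544293-49544442 on the plus strand for Aspn. RefSeq promoters were matched for 6 of the 10 genes. Motifs were searched on both strands and are in capitals. The TATA box core was searched as TATAAA. The GC box was searched as GGGCGG. A Smad-binding element was searched as CAGACA, which reads TGTCTG when it lies on the opposite strand. A further motif was the CCAAT box.
Col3a1: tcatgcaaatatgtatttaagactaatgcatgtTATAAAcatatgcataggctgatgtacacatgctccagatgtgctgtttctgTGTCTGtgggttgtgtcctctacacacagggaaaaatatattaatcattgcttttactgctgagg
Col5a1: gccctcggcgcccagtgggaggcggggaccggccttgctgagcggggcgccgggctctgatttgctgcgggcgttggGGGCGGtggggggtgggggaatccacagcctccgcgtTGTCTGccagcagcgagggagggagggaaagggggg
Col6a1: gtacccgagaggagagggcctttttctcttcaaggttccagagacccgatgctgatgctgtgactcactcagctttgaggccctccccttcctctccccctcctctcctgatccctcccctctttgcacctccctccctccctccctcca
Aspn: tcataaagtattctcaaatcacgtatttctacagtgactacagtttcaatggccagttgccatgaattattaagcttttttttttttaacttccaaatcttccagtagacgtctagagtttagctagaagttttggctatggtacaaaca
The Col3a1 window holds the TATA box core from 117 to 112 bases before the start and the Smad-binding element on the opposite strand from 65 to 60 bases before it. The Col5a1 window holds the GC box from 73 to 68 bases before the start and the Smad-binding element on the opposite strand from 36 to 31. None of the 4 motifs occurs in the Col6a1 or Aspn window. Among matched genes not shown, a Postn window holds the TATA box core from 26 to 21 bases before its start. The Col1a2 window holds the CCAAT box from 109 to 105 bases before its start. Of 32851 mouse promoters of the same length, 7.57% hold the TATA box core, 24.5% the CCAAT box, 28.6% the GC box and 10.3% the Smad-binding element. The windows differ in base composition, with G or C at 37.3% of bases for Col3a1, 74.7% for Col5a1, 60% for Col6a1 and 33.3% for Aspn.

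Before the group comparisons, 1 feature of the control arrays bears on all that follow. Replicates 1 and 2 of saline stood apart from replicates 3, 4 and 5. The 18S ribosomal control probe set near the 5 prime end read at least 11.99 in replicates 1 and 2 and from 11.44 to 11.50 in replicates 3 to 5. The mean level of 16 epithelial and carcinoma markers was 10.26 and 10.23 in replicates 1 and 2 and 9.12, 9.28 and 8.32 in replicates 3, 4 and 5. Col3a1 and Dcn were split in the same way. The saline comparisons are therefore given with all 5 saline arrays, and a call that was lost without 1 of these subsets is named as such. The fits without a subset were added after the data were seen. The lowest T cell marker means were 8.26 in triple replicate 2 and 8.78 in saline replicate 1, and the other 18 arrays lay from 9.22 to 10.22.

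All 5 collagen genes had a higher mean with the combination than with saline, and 3 of them passed the test. Col1a1, Col1a2 and Col3a1 rose and Aspn fell, so 4 of the 10 genes passed the test. Over all genes 3.47% rose and 2.15% fell in this comparison. The test was limma's moderated test over all 17097 genes with Benjamini-Hochberg adjustment, called at an adjusted p under 0.05, and it was used for every comparison.

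Col1a1 encodes the α1 chain of type I collagen, the main fibril collagen of connective tissue. It read 6.79, 7.63, 5.32, 5.75 and 4.51 in saline and 7.69, 8.99, 8.72, 8.38 and 7.66 in the combination. Every combination array was above every saline array, an order seen in 3.36% of all genes. The log2 fold change was 2.29 (SE 0.45, limma adjusted p = 0.00429). The call held when any 1 array was left out, with adjusted p up to 0.0178. It was lost without saline replicates 3 to 5, where the log2 fold change was 1.08 (limma adjusted p = 0.297), and with the 18S signal as a covariate, where it was 1.32 (limma adjusted p = 0.382).

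Col3a1, the single chain gene of type III collagen, read 11.63, 11.94, 10.52, 10.22 and 9.42 in saline and 11.82, 12.55, 11.91, 11.89 and 11.78 in the combination. The treated arrays were close together. Saline replicate 2 lay within their range, replicate 1 lay just below it and replicates 3, 4 and 5 lay further below. Col3a1 rose by a log2 fold change of 1.24 (SE 0.35, limma adjusted p = 0.0437). Leaving out saline replicate 3, 4 or 5 or any 1 combination array ended the call (adjusted p up to 0.119, without saline replicate 4). The call was also lost when only these 2 groups were fitted, with the 18S covariate, and without saline replicates 3 to 5, where the log2 fold change was 0.20.

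Col1a2, the partner chain of Col1a1, was measured by 1 probe set that read below the array's median on all 20 arrays, so its values lie in the dim range. They were 3.06, 2.89, 2.83, 2.83 and 2.55 in saline and 3.23, 3.61, 2.92, 3.36 and 3.42 in the combination, with overlap through the third treated array. The log2 fold change was 0.48 (SE 0.13, limma adjusted p = 0.0395). The call was lost in 7 of 10 fits that left out 1 array, namely saline replicate 3, 4 or 5 or combination replicate 1, 2, 4 or 5, with adjusted p up to 0.109. It was also lost after quantile normalization, when only these 2 groups were fitted, with the 18S covariate and without saline replicates 3 to 5.

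Col5a1, the type V chain that starts fibril assembly, read from 7.35 to 9.08 in the combination against 5.55 to 7.62 in saline and did not pass (limma adjusted p = 0.144). Col6a1, a chain of type VI collagen, averaged 9.10 ± 0.35 (SD, n = 5) against 7.97 ± 1.12 (SD, n = 5), with limma adjusted p = 0.103. The differences of 1.13 and 1.14 on the log2 scale had standard errors of 0.43 and 0.39. Saline held the widest range of all groups for both genes, 2.08 for Col5a1 and 2.53 for Col6a1. Without saline replicates 1 and 2 Col6a1 passed and Col5a1 did not.

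Decorin, the product of Dcn, coats collagen fibrils and binds TGF-beta. Dcn read 10.68, 10.83, 8.99, 8.78 and 7.96 in saline and 10.57, 11.20, 10.37, 10.50 and 10.52 in the combination. Its saline arrays fell into the same subsets as those of Col3a1, and the difference of 1.19 (SE 0.45) did not pass (limma adjusted p = 0.149). Without saline replicates 1 and 2 it was 2.06 (limma adjusted p = 8.81e-04), and without replicates 3 to 5 it was -0.12.

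Fn1, the gene of fibronectin, spanned 6.42 to 11.27 in saline, the lowest value in replicate 5 and the next, 8.46, in replicate 3. Macrophages and carcinoma cells also make fibronectin. In the combination it read from 9.80 to 11.86, and the difference of 1.04 (SE 0.73) was within the spread (limma adjusted p = 0.507). Postn, the gene of periostin, averaged 7.90 ± 0.19 (SD, n = 5) against 7.86 ± 0.32 (SD, n = 5) in saline.

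**Figure D1:**
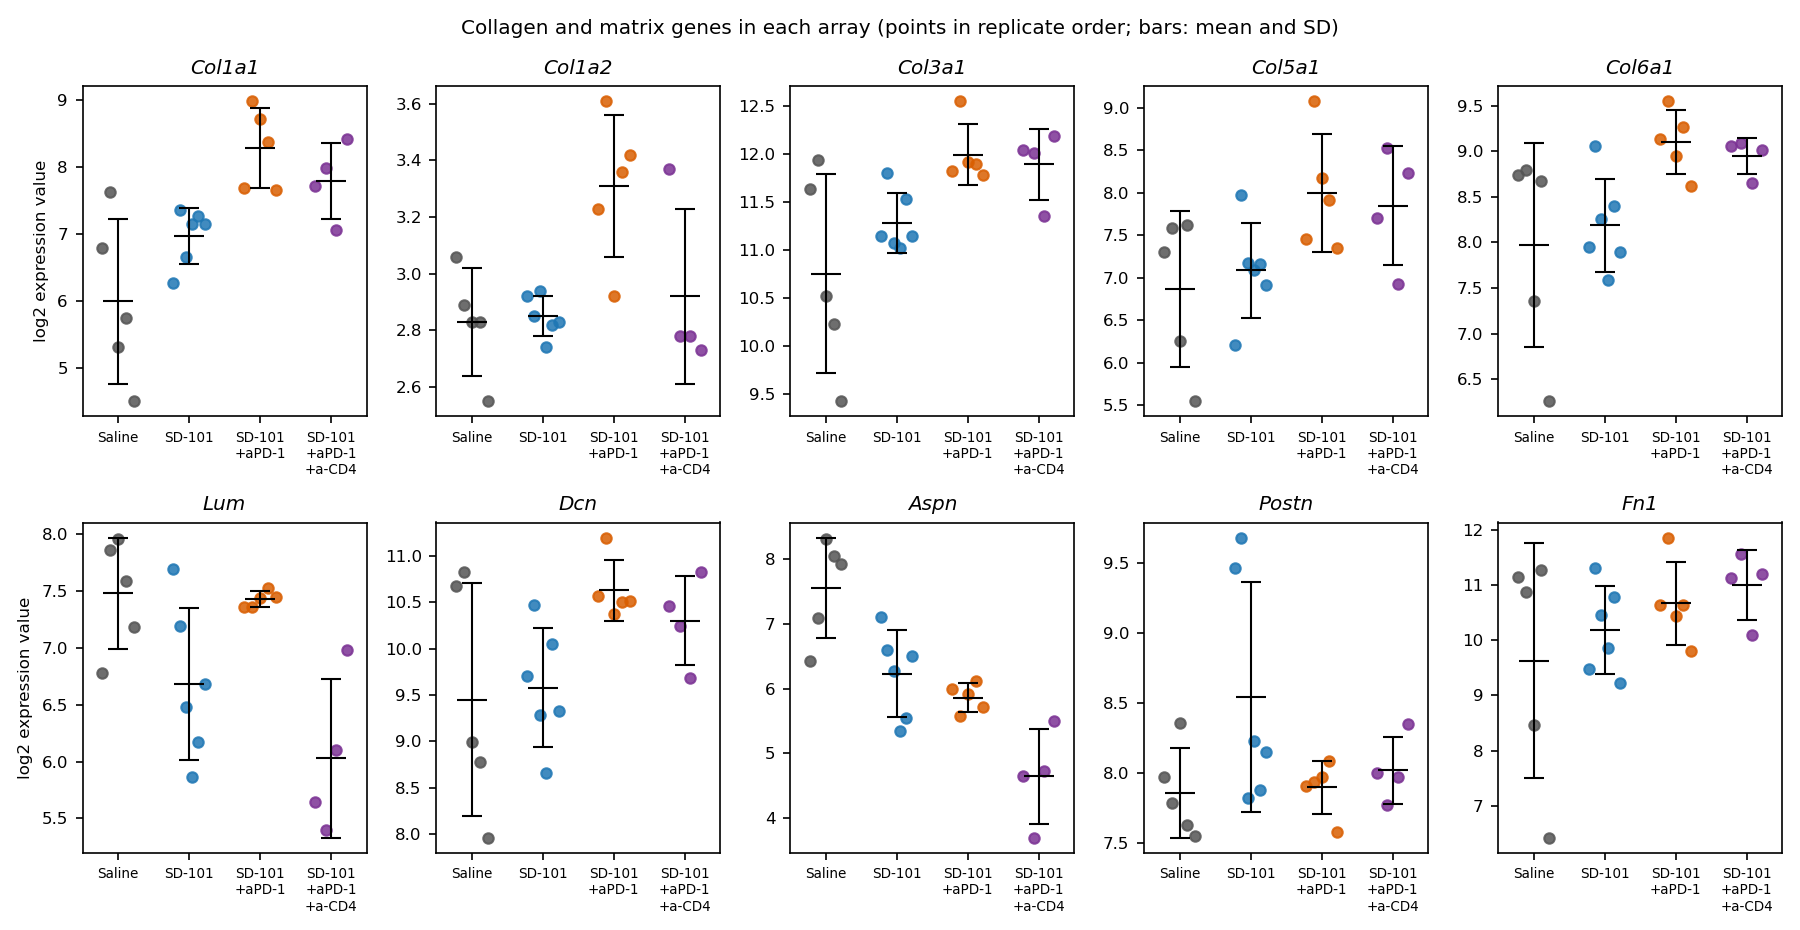
log2 expression value (vertical axis) of each of the 10 genes on every array of the 4 groups, with points in replicate order and bars for the group mean and SD; each panel has its own vertical scale, which does not start at 0, and +aPD-1 on the axis is the combination and +a-CD4 the triple treatment. Col1a1 lies higher in every combination array than in any saline array, Aspn is lowest in the triple arrays, and the saline arrays of Col3a1, Dcn and Fn1 are widely spread.

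Asporin, the product of Aspn, is a proteoglycan that binds collagen and TGF-beta, and its gene went the other way from the collagens. Aspn read 6.43, 7.10, 8.31, 8.06 and 7.93 in saline and 5.99, 5.57, 5.91, 6.11 and 5.71 in the combination. Every treated array was below every saline array, which 2.32% of all genes showed in this comparison. Aspn fell by 1.71 on the log2 scale (SE 0.38, limma adjusted p = 0.01). The call held without any 1 array (adjusted p up to 0.0398) and was lost without saline replicates 3 to 5 and with the 18S covariate. Lumican, the product of Lum, spaces fibrils evenly. Lum averaged 7.43 ± 0.07 (SD, n = 5) against 7.48 ± 0.49 (SD, n = 5) in saline.

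With a-CD4 added, Aspn and Lum were called lower than with saline and Col1a1 was called higher. These were 3 of the 10 genes in the triple treatment against saline, where 4.09% of all genes rose and 3.03% fell. These comparisons share the saline arrays with those above.

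Aspn read 4.64, 3.69, 4.73 and 5.50 in the 4 arrays, all below the lowest saline value of 6.43, an order that 3.32% of all genes showed. It fell by 2.93 on the log2 scale (SE 0.40, limma adjusted p = 6.38e-04). This call held in all 9 fits without 1 array (adjusted p up to 0.00261) and in all 12 other settings, including those without saline replicates 1 and 2 and without replicates 3 to 5 (adjusted p up to 0.0226). Its second probe set, which was dimmer, gave a difference of -1.97.

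Lum read 6.78, 7.86, 7.96, 7.59 and 7.18 in saline and 5.64, 5.40, 6.10 and 6.98 in the triple treatment, with replicate 4 of the latter inside the saline range. It fell by 1.44 on the log2 scale (SE 0.34, limma adjusted p = 0.0151). The call was lost without triple replicate 2 (limma adjusted p = 0.0523), the array of lowest T cell marker level, without saline replicates 3 to 5, when only these 2 groups were fitted and with the 18S covariate.

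Col1a1 read 7.72, 7.99, 7.06 and 8.42 in the triple treatment, above 4 of the 5 saline arrays, with replicate 3 below saline replicate 2. The log2 fold change was 1.8 (SE 0.48, limma adjusted p = 0.0279). It lost its call when saline replicate 3, 4 or 5 or triple replicate 1, 2 or 4 was left out (adjusted p up to 0.0876), and also without saline replicates 3 to 5, when only these 2 groups were fitted and with the 18S covariate. Col3a1 differed by 1.15 (SE 0.37, limma adjusted p = 0.0708), and Col5a1, Col6a1, Dcn and Fn1 by 0.98, 0.98, 0.85 and 1.36 with adjusted p from 0.175 to 0.341. Without saline replicates 1 and 2, Col3a1, Col6a1 and Dcn passed as well. Col1a2 and Postn differed by 0.09 and 0.16, with limma adjusted p of 0.798 and 0.835.

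SD-101 alone moved none of the 10 genes past the test against saline, where 0.333% of all 17097 genes passed and 8.27% had an unadjusted limma p under 0.05. Among the 10, Col1a1, Lum, Aspn and Postn had an unadjusted p under 0.05. Aspn had the lowest adjusted p, 0.18, with values in SD-101 from 5.34 to 7.11 around a median of 6.38 and a difference of -1.34 (SE 0.36). Lum differed by -0.80 and Col1a1 by 0.98. Col1a2, Col3a1, Col5a1, Col6a1, Dcn and Fn1 differed by 0.02 to 0.55, with limma adjusted p from 0.733 to 0.989. Without saline replicates 1 and 2, Aspn (-1.87, limma adjusted p = 0.0399) and Col1a1 (1.79, limma adjusted p = 0.0489) passed. Without saline replicates 3 to 5, Aspn differed by -0.54 (limma adjusted p = 0.593) and Col1a1 turned to -0.23 (limma adjusted p = 0.843).

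Postn was the only gene of the 10 with its highest group mean in SD-101. It read 9.46 and 9.68 in SD-101 replicates 1 and 2 and from 7.82 to 8.23 in the other 4, while saline ranged from 7.55 to 8.36. The difference of 0.68 (SE 0.29) did not pass (limma adjusted p = 0.519), and it rested on those 2 arrays.

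Against SD-101 alone, the combination raised 1 of the 10 genes, Col1a2, while 3.52% of all genes rose and 1.25% fell. SD-101 arrays of Col1a2 ranged from 2.74 to 2.94 around a median of 2.84, below 4 of the 5 combination arrays. The log2 fold change was 0.46 (SE 0.13, limma adjusted p = 0.0454), and the call was lost in 10 of 11 fits without 1 array, the exception being combination replicate 3 (adjusted p up to 0.123). It was also lost with arrays centred on their medians, after quantile normalization, with the replicate block and with the 18S covariate. Col1a1 ranged from 6.28 to 7.37 in SD-101, around a median of 7.15, so every combination array was above every SD-101 array, as for 4.09% of all genes. The difference of 1.31 (SE 0.43) did not pass (limma adjusted p = 0.092). Col3a1, Col5a1, Col6a1, Lum and Dcn differed by 0.71, 0.91, 0.91, 0.75 and 1.05, with limma adjusted p from 0.187 to 0.273. Postn differed by -0.64, Fn1 by 0.49 and Aspn by -0.37, with limma adjusted p of 0.241, 0.799 and 0.673. The count of called genes moved with the fit. It was 5 when only the arrays of these 2 groups were fitted, namely Col1a1, Col1a2, Col3a1, Col6a1 and Dcn, a fit in which 5.84% of all genes rose and 1.95% fell. It was 0 after centring, quantile normalization, the replicate block or the 18S covariate, and with that covariate Col1a1, Col3a1 and Dcn turned to -0.080, -0.20 and -0.017. The 18S signal did not overlap between these 2 groups, so the fit with it cannot tell the signal from the treatment.

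The addition of a-CD4 to the combination lowered Lum, 1 of the 10 genes, while 0.948% of all genes rose and 1.18% fell. Lum in the combination lay within a range of 0.18, at 7.36, 7.36, 7.44, 7.53 and 7.45, and every triple value, at most 6.98, was below it. It fell by 1.40 on the log2 scale (SE 0.34, limma adjusted p = 0.0425). The call held in only 1 of 9 fits without 1 array, that without triple replicate 4 (adjusted p up to 0.163, without replicate 2), and was lost without the 2 arrays of lowest T cell marker level. Aspn was also lower in every triple array, with a difference of -1.22 (SE 0.40) that did not pass (limma adjusted p = 0.114). A full separation downward was seen for 4.53% of all genes. The other 8 genes differed by -0.49 to 0.33 with adjusted p of 0.144 or more.

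**Figure D2:**
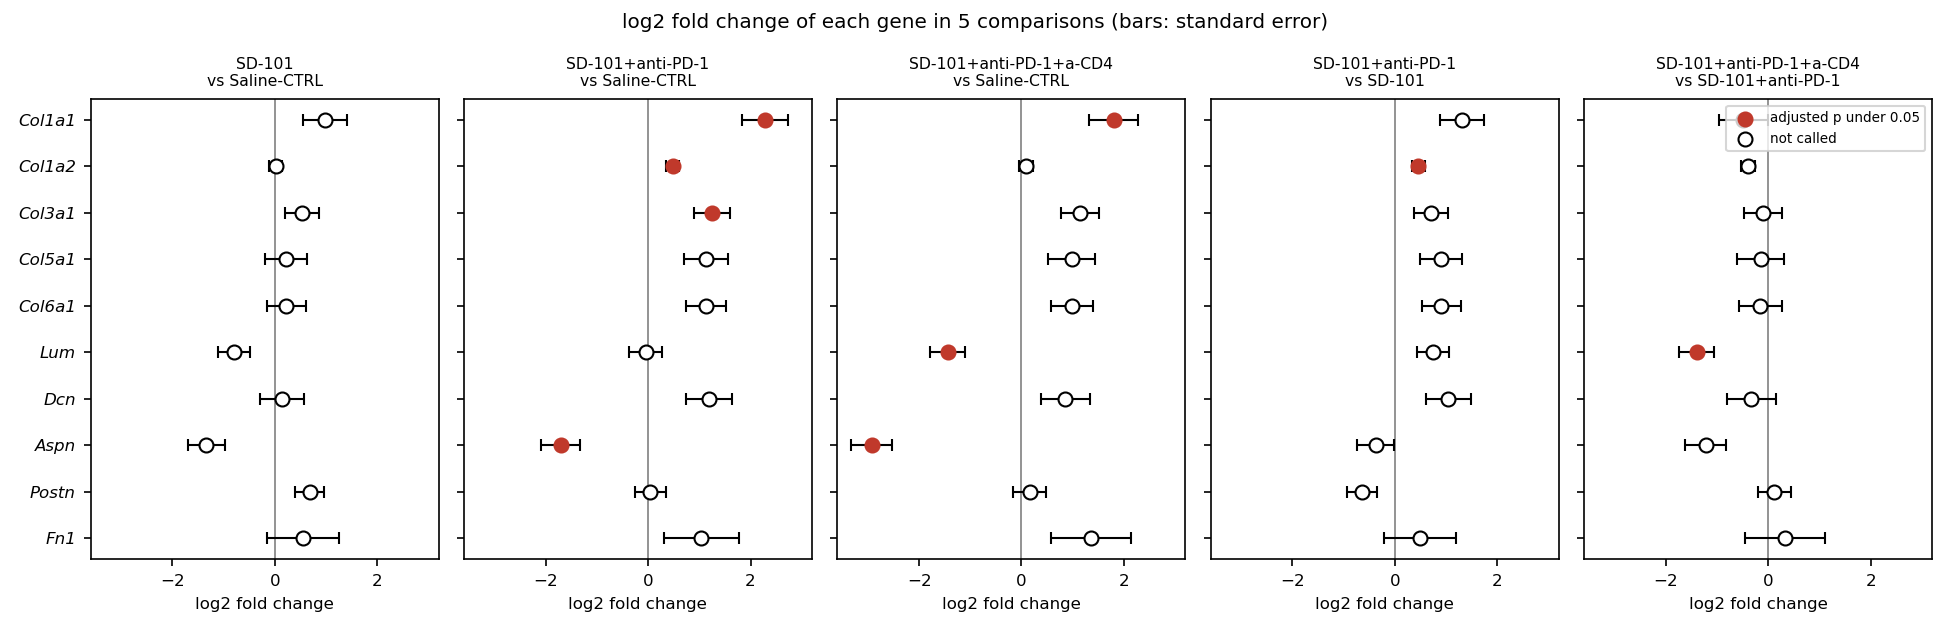
log2 fold change (horizontal axis) of each gene in the 5 comparisons with its standard error; filled red points have an adjusted p under 0.05 and open points do not. Aspn lies left of 0 in every panel, and Col1a1 lies furthest right in both comparisons of antibody-treated arrays with saline. Lum is left of 0 in every panel except the combination against SD-101, and furthest left in both comparisons that involve a-CD4.

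In the order of group means, Col1a1, Col1a2, Col3a1, Col5a1, Col6a1 and Dcn ran from the combination through the triple treatment and SD-101 to saline. Neighbouring groups in that order overlapped for each of these genes. Fn1 ran from the triple treatment through the combination and SD-101 to saline, also with overlap at each step. Aspn ran from saline through SD-101 and the combination to the triple treatment, and only the last step had no overlap between neighbours. Lum had saline and the combination at the top, 0.05 apart, then SD-101 and the triple treatment.

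Other probe sets of the same genes were compared where the array held them. Col3a1 has a second probe set with a mean of 7.90, which gave 2.08 for the combination against saline where the first gave 1.24. Over the 20 arrays the pair had r = 0.98. The 3 probe sets of Col5a1 gave 1.13, 1.15 and 1.54 in that comparison. The 2 of Aspn gave -1.71 and -1.32, with r = 0.94. The probe sets of a gene thus had the same direction and differed in size.

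From array to array the 10 genes fell into blocks. Col1a1, Col3a1, Col5a1, Col6a1, Dcn and Fn1 had Pearson r from 0.72 to 0.94 in their 15 pairs over the 20 arrays, and from 0.61 to 0.96 after group means were removed. The genes share the RNA sample, the array and its normalization, so these values describe the arrays. For Col3a1 and Dcn r was 0.94 (permutation p = 1e-05, the smallest that 100000 permutations can give, adjusted p = 6e-05 over 45 pairs) and Spearman's rho was 0.85 (permutation p = 1e-05, adjusted p = 1.12e-04). Without the 2 arrays farthest from the median of Col3a1 it was 0.92, and within the groups it ran from 0.91 to 0.99. The range of the 6 genes with Lum was -0.21 to 0.08 and with Aspn -0.69 to -0.46. With group means removed these ranges were -0.08 to 0.2 and -0.45 to -0.25. Within groups the sign with Aspn was not constant, as for Dcn, at -0.83 in saline and 0.42 in the triple treatment.

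Lum and Aspn varied together. Their Pearson r was 0.76 (permutation p = 9e-05, adjusted p = 3.37e-04 over 45 pairs), Spearman's rho was 0.73 (permutation p = 3.6e-04, adjusted p = 0.00147), and r was 0.63 without the 2 arrays farthest from the median of Lum. With group means removed it was 0.82, with 0.96 over the 6 SD-101 arrays, 0.92 over the 4 triple arrays, 0.60 in saline and 0.54 in the combination. Postn had r = 0.18 with Lum and 0.15 with Aspn, and 0.67 and 0.48 with group means removed. Within groups Postn ran from 0.17 to 0.94 with Lum and from 0.06 to 0.96 with Aspn. Lum and Dcn are neighbouring protein genes in RefSeq's order on the chromosome and encode related proteoglycans, yet had r = 0.08 (permutation p = 0.745, adjusted p = 0.838; rho = 0.18, permutation p = 0.453, adjusted p = 0.679) and 0.23 without the 2 farthest arrays. Col1a1 and Col1a2, whose chains join in 1 collagen, had r = 0.54 (permutation p = 0.0131, adjusted p = 0.0256; rho = 0.38, permutation p = 0.0962, adjusted p = 0.18), 0.43 without the 2 farthest arrays and 0.21 with group means removed. The Col1a2 probe set read below the array median on all 20 arrays, so a low r cannot show that the 2 genes vary apart.

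**Figure D3:**
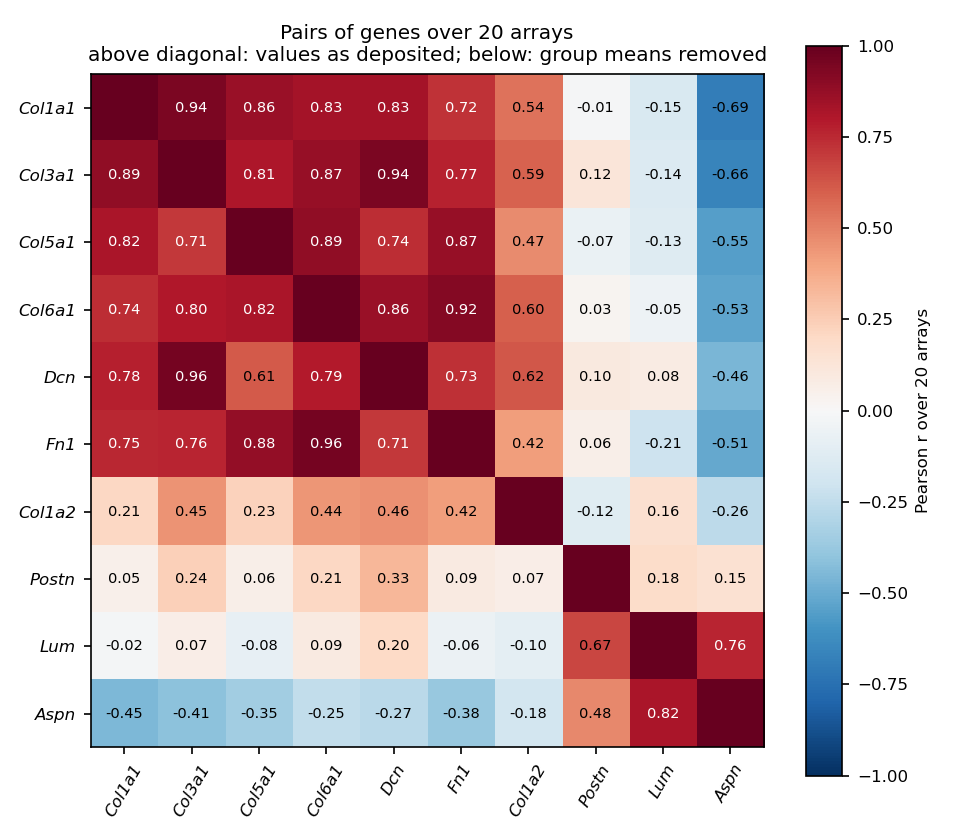
Pearson r (colour and printed value) for the 45 pairs of genes over 20 arrays, from the deposited values above the diagonal and with group means removed below it. Above the diagonal, the 6 genes at the top left have r of at least 0.72 and Lum and Aspn have 0.76 with each other. Aspn has -0.69 to -0.46 with the 6 above the diagonal and -0.45 to -0.25 below it.

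The 10 genes most like the mean of the set, each gene first scaled to the same mean and SD, were Clmp, Slit2, Col6a2, Htra3, Nbl1, Bgn, Tmem45a, Mgp, Sparc and Serping1, with r from 0.903 to 0.932 over 20 arrays among 17087 genes. Col6a2 encodes a partner chain of type VI collagen, Bgn the proteoglycan biglycan, Sparc a collagen-binding glycoprotein, Mgp the matrix Gla protein and Slit2 a guidance ligand. Of these 10, 7 were also among the 10 nearest when group means were removed. The mean itself followed Dcn (r = 0.91), Col6a1 (0.90) and Col3a1 (0.87) and not Aspn (-0.29), Postn (0.24) or Lum (0.25).

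Genes of the wider collagen and matrix pathway were read from 6 lists. Of 26 other collagen chains, 4 rose and none fell with the combination against saline, with a list median of 0.41 beside 0.03 for all genes. Col6a3 and Col6a2, the partner chains of Col6a1, rose by 1.93 (limma adjusted p = 8.34e-04) and 1.40 (limma adjusted p = 0.0138). Col8a2, a short-chain collagen, rose by 1.67 (limma adjusted p = 3.09e-04), and Col5a2, the partner of Col5a1 and the neighbour of Col3a1 on the chromosome, by 1.57 (limma adjusted p = 0.0202). Col5a2 lost its call without saline replicate 3, 4 or 5 or combination replicate 2. Without saline replicates 3 to 5, of these 4 only Col8a2 stayed called.

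Against SD-101 alone, 3 other chains rose with the combination, Col8a2 (1.42, limma adjusted p = 0.00129), Col4a4 (1.62, limma adjusted p = 0.0362) and Col4a5 (1.11, limma adjusted p = 0.0444), the last pair being basement membrane chains. Col4a4 and Col4a5 lost their calls in 9 and 8 of 11 fits without 1 array, and these included each of SD-101 replicates 3 to 6 and combination replicates 1 to 4. With a-CD4 added, Col14a1, a collagen that sits on fibrils, fell by 1.71 (limma adjusted p = 0.0234) and Col8a2 fell by 0.98 (limma adjusted p = 0.045). Col14a1 lost its call without combination replicate 1 or 4 or triple replicate 1 or 2, and Col8a2 in 7 of 9 such fits, all but those without combination replicate 5 or triple replicate 4. Col5a2 was the 1 other chain of 26 that rose in the triple treatment against saline (1.49, limma adjusted p = 0.0331), a call lost in 6 of 9 fits, those without saline replicate 3, 4 or 5 or triple replicate 1, 2 or 4. This call was also lost without saline replicates 3 to 5 together.

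Among 24 measured genes of collagen folding, processing and cross-linking, 2 rose with the combination against saline. Loxl1, a lysyl oxidase that cross-links elastin and collagen, rose by 1.91 (limma adjusted p = 0.0152; 0.0513 without saline replicate 4). Mrc2, an uptake receptor for collagen, rose by 1.37 (limma adjusted p = 0.0364) and lost its call without saline replicate 3, 4 or 5 or combination replicate 1, 2, 3 or 4. Lox was the 1 gene of this list that rose with the triple treatment (2.19, limma adjusted p = 0.0282), lost without saline replicate 3, 4 or 5 or triple replicate 1, 2 or 4. Without saline replicates 3 to 5 together, Loxl1, Mrc2 and Lox all lost these calls. The list medians were 0.29 and 0.49.

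Of 28 other proteoglycans, elastic fibre and matrix glycoproteins, 6 rose and none fell with the combination against saline, with a median of 0.71. Eln, the gene of elastin, rose by 2.08 (limma adjusted p = 3.09e-04), Mfap5, a microfibril protein gene, by 2.30 (limma adjusted p = 0.00175), Fmod, the gene of the proteoglycan fibromodulin, by 1.88 (limma adjusted p = 0.00183) and Tnc, the gene of tenascin C, by 2.21 (limma adjusted p = 0.00444). These 4 held without any 1 array and lost their calls without saline replicates 3 to 5. In the triple treatment against saline 2 rose and 2 fell. Eln rose by 1.67 (limma adjusted p = 0.00279) and held without any 1 array, but not without saline replicates 3 to 5 together. Mfap5 (1.62, limma adjusted p = 0.0278), Tnxb (-1.31, limma adjusted p = 0.033) and Ltbp4 (-0.94, limma adjusted p = 0.0395) lost their calls in 5, 6 and 6 of 9 such fits, saline replicate 3 among them in each case. Tnxb and Ltbp4 were no longer called without saline replicates 1 and 2, while Mfap5 was no longer called without replicates 3 to 5.

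Fmod changed both when anti-PD-1 was added to SD-101 and when a-CD4 was added to the combination. It rose by 1.46 from SD-101 to the combination (limma adjusted p = 0.0135), where 2 of 28 rose, the other being Podn (1.12, limma adjusted p = 0.0447; lost in 7 of 11 fits without 1 array, those of SD-101 replicates 1, 3, 4 and 6 and combination replicates 1, 2 and 4). It fell by 1.59 when a-CD4 was added (limma adjusted p = 0.0254), the 1 gene of 28 to do so, a call lost without combination replicate 3 or 4 or triple replicate 1 or 2. Both comparisons share the arrays of the combination. The list median was 0.62 in the first and -0.53 in the second, beside 0.01 and 0.00 for all genes.

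Of 23 genes for matrix degradation and its inhibitors, Mmp23 (1.38, limma adjusted p = 0.0237) and Serpinf1 (2.04, limma adjusted p = 0.0385) rose with the combination against saline. Both lost their calls without saline replicate 3, 4 or 5 and without combination replicate 2, and Serpinf1 also without replicates 1, 3 and 4. Mmp23 also rose with the triple treatment (1.26, limma adjusted p = 0.0443), lost in 7 of 9 fits without 1 array, those of saline replicates 1, 3, 4 and 5 and triple replicates 1, 2 and 4. These calls of Mmp23 and Serpinf1 against saline were all lost without saline replicates 3 to 5 together. Mmp12, the macrophage elastase gene, fell by 2.38 from SD-101 to the combination (limma adjusted p = 0.0465), lost without SD-101 replicate 3 or 5 or any 1 combination array. Its mean was 5.78 in SD-101 and 3.26 in saline.

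TGF-beta is the main known inducer of collagen genes, and its pathway list held falls and no rises. With the combination against saline 3 of 17 genes fell, the inhibitory Smad genes Smad6 (-3.12, limma adjusted p = 4.49e-04) and Smad7 (-0.90, limma adjusted p = 0.0193) and the co-receptor gene Eng (-2.54, limma adjusted p = 6.11e-04). Smad7 lost its call without saline replicate 3, 4 or 5 or combination replicate 3 or 4. With the triple treatment 5 of 17 fell, Smad6 (-2.67, limma adjusted p = 0.00277), Bambi, a decoy receptor gene (-1.64, limma adjusted p = 0.00353), Smad7 (-1.21, limma adjusted p = 0.00389), Eng (-1.59, limma adjusted p = 0.0248) and Smad4 (-0.52, limma adjusted p = 0.0267), the shared partner of the signalling Smads. Smad4 lost its call without saline replicate 3 or triple replicate 1, 3 or 4. Eng lost this call without saline replicate 3 or 4 or triple replicate 3 or 4. Smad6, Smad7 and Eng lost their calls against saline, with the combination and with the triple treatment, without saline replicates 3 to 5 together. They also lost them with the 18S covariate. Smad4 lost its call in both of these fits and without saline replicates 1 and 2, while Bambi kept its call in all of them. From SD-101 to the combination Eng fell by 2.16 (limma adjusted p = 0.00282) and Smad6 fell by 2.06 (limma adjusted p = 0.0121). When a-CD4 was added to the combination, Bambi was the 1 gene of 17 that fell (-1.22, limma adjusted p = 0.0478), a call lost without combination replicate 1, 2, 3 or 4 or triple replicate 1 or 2.

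Eng is also 1 of 14 endothelial markers, and the endothelial list moved with these genes. All 14 fell in the combination and all 14 in the triple treatment against saline, with medians of -3.29 and -2.04. Their mean level ranged from 7.35 to 9.40 in saline, 6.49 to 8.85 in SD-101, 5.03 to 5.82 in the combination and 5.94 to 7.26 in the triple treatment. The part of these cells in the values of Smad6, Smad7, Eng and Aspn was not tested. Of 16 collagen and fibronectin receptor genes none passed in any of the 5 comparisons, with 0 to 4 at an unadjusted limma p under 0.05 in each. Itga1, an integrin chain that binds collagen, had the lowest adjusted p, 0.0627, in the combination against saline, with a difference of -1.15, and Itgb6 was next there (1.11, limma adjusted p = 0.151). The lowest adjusted p were those of Ddr1 (0.779) and Itga2 (0.852) with SD-101 against saline, Itgb1 (0.0782) and Itgav (0.205) with the triple treatment against saline, Itga1 (0.063) and Itga2 (0.0949) from SD-101 to the combination, and Itga10 (0.138) and Itga8 (0.199) when a-CD4 was added.

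**Figure D4:**
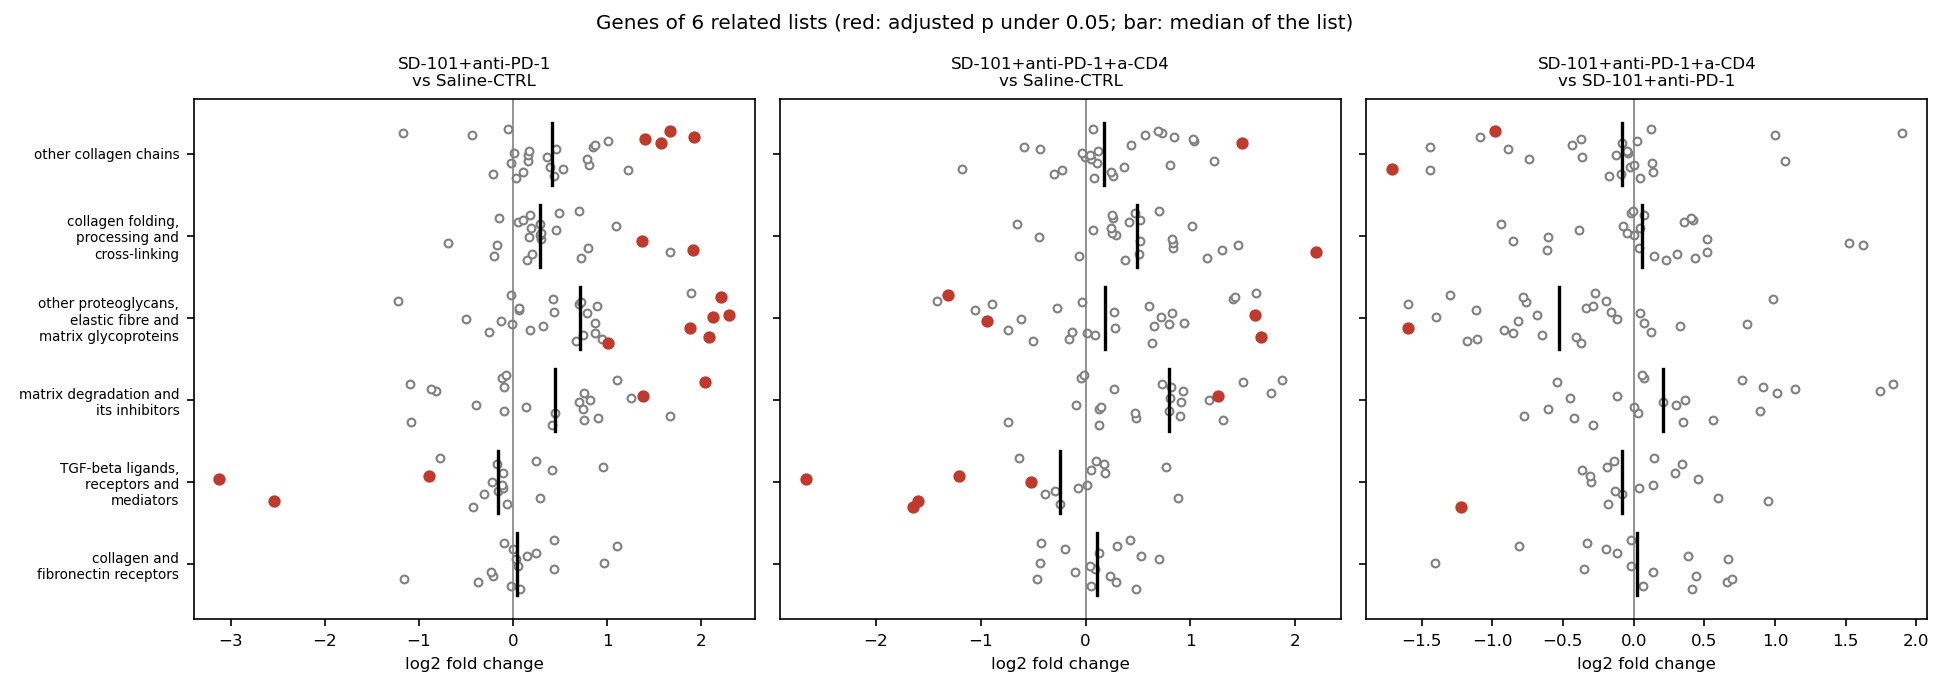
log2 fold change (horizontal axis) of every measured gene in 6 related lists for 3 comparisons, with red points for adjusted p under 0.05 and a bar at each list's median; the panels have their own horizontal scales. In the left panel the red points of the collagen and glycoprotein lists lie right of 0 and the 3 of the TGF-beta list lie left of it.

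Markers of other lung cells that make matrix were set beside the collagen genes. Of 21 fibroblast markers outside the matrix genes, 2 rose with the combination against saline, with a median of 0.43. Their mean level ranged from 4.88 to 6.35 in saline, 5.02 to 6.61 in SD-101, 5.85 to 6.60 in the combination and 5.70 to 6.32 in the triple treatment. The 6 mesothelial markers averaged 6.91, 7.16, 6.23, 5.59 and 4.97 in the saline replicates and from 6.35 to 8.20 in the combination, the highest being replicate 2, which was also the highest of its group for all 6 genes Col1a1, Col3a1, Col5a1, Col6a1, Dcn and Fn1. None of the 6 mesothelial markers passed in that comparison, with a median of 0.89. Of 16 epithelial and carcinoma markers 1 rose there, with a median of 0.92, and of 11 ciliated airway cell markers 10 rose, with a median of 2.36. Of 11 smooth muscle and pericyte markers none rose and 2 fell. The part of these cells in the collagen differences was not tested.

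The 18S control had higher group means in both antibody-treated groups, as Col1a1 and Col3a1 did, but did not follow them array by array. In the combination Col3a1 was highest in replicate 2 (12.55), where 18S read 11.99, while 18S was highest in replicate 3 (12.31). In the triple treatment replicate 3 had the highest 18S value (12.17) and the lowest Col3a1 value (11.35). The 18S signal ranged from 11.30 to 11.80 in SD-101, 11.84 to 12.31 in the combination and 11.98 to 12.17 in the triple treatment. Its r over 20 arrays was 0.70 with Col1a1, 0.65 with Col3a1 and Dcn, 0.64 with Col6a1 and 0.58 with Col5a1. It was 0.41 with Col1a2, 0.39 with Fn1, -0.05 with Lum, -0.28 with Postn and -0.51 with Aspn, a description without a test. With this signal as a covariate 0 of the 10 genes were called in the combination against saline, and Aspn alone was called in the triple treatment against saline, at -2.54 (limma adjusted p = 0.0133). The signal itself differed between groups, with no overlap between SD-101 and either antibody-treated group. A call lost with this covariate therefore cannot be assigned to the signal or to the treatment.

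**Figure D5:**
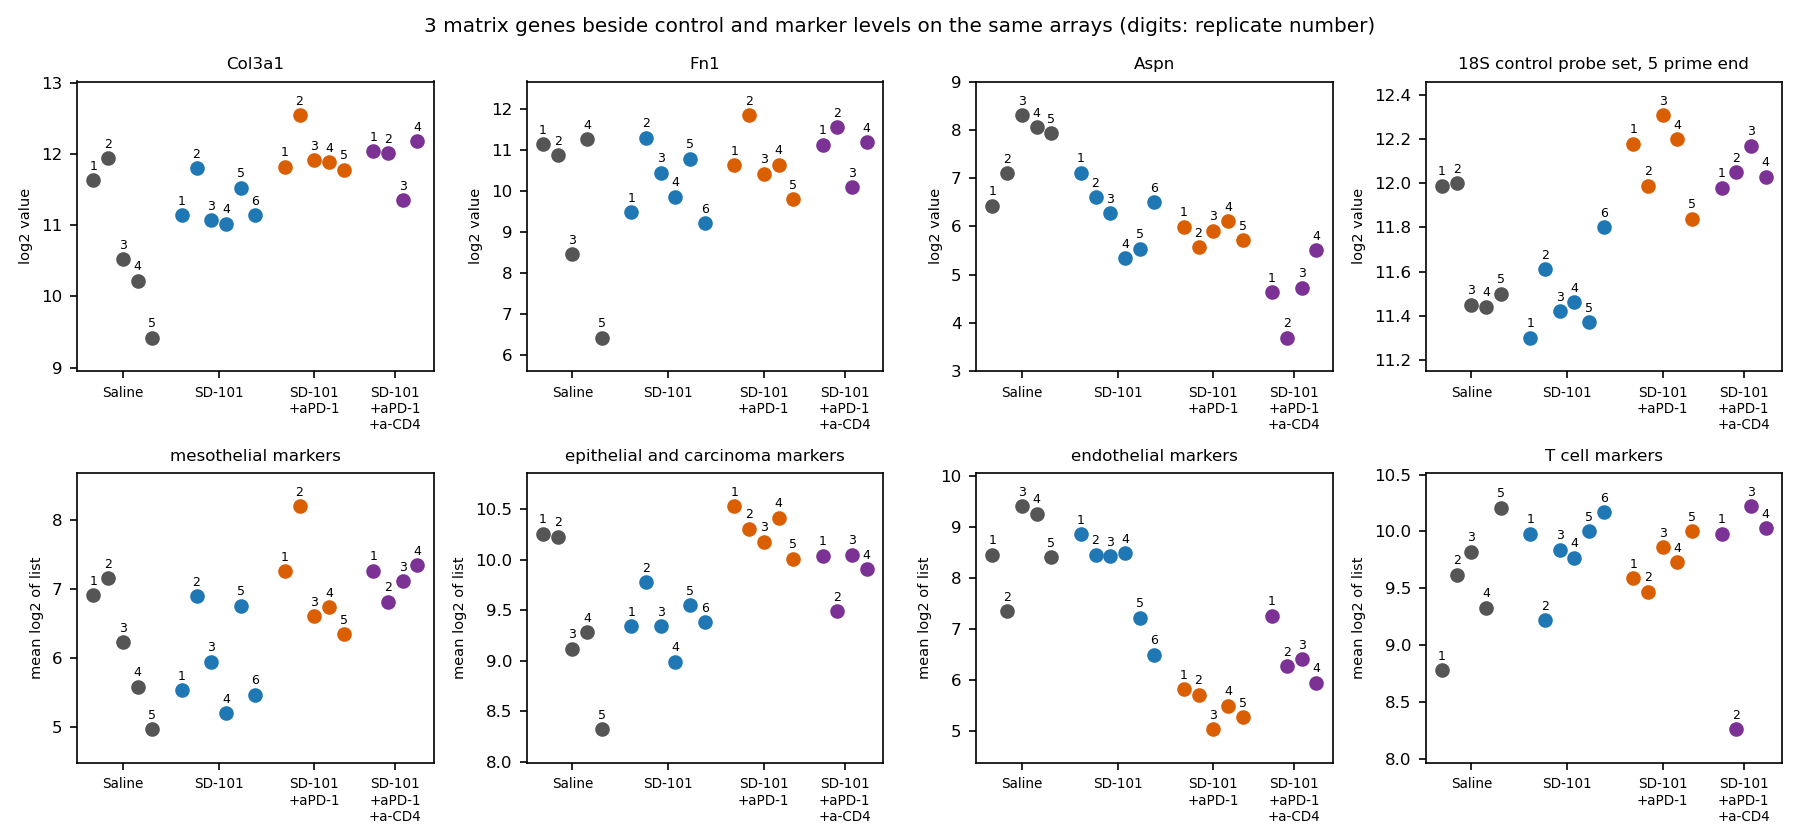
Col3a1, Fn1, Aspn and the 18S control on each array (top row, log2 value) and the mean log2 level of 4 marker lists (bottom row), with digits giving the replicate number and a separate vertical scale in each panel. Saline replicates 1 and 2 lie above replicates 3 to 5 for Col3a1, the 18S control, the mesothelial and the epithelial markers, and below them for Aspn.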

How the data were processed

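RNA was hybridised to Affymetrix arrays in 20 samples. The deposited values are log2 expression values per probe set. The submitters' processing notes name RMA, affy, limma and the build mm8, with no versions or order, and the deposited log2 values were used without further normalization. Array medians ranged from 3.52 to 3.75. Of 45141 probe sets, 28898 are listed with 1 gene symbol, 551 with several, 15692 with none, and 104 of all are array controls. Only probe sets listed with 1 gene symbol could enter the tests. The number of arrays limits the precision. Group comparisons set each probe set against itself, and levels of different probe sets are given side by side only as description.

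Group means over all 20 arrays were compared with limma 3.58.1 in R 4.3.3 (lmFit, eBayes) in 5 contrasts, 2-sided, with Benjamini-Hochberg adjustment over 17097 genes and no covariate. The fit was tested on simulated data with independent noise of each gene's own spread. Of genes drawn from all 17097 and changed by 1 on the log2 scale, 73.5% to 81% were recovered. False calls were 3.57% to 7.06% of the calls. These shares are no recovery rate for the 10 genes, whose pooled SD within groups reached 1.25. Correlations used 100000 permutations of array labels. All 10 genes are reported in every comparison, with up to 4 called genes of smallest p per related list in each comparison described for it (2 where none passed; Smad4 was added after its values were seen), the 10 genes nearest the set's mean, and marker lists by counts. Members and lists were chosen with earlier results of these data known. Same-numbered replicates did not pair.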

Additional observations from a re-analysis of the deposited data

Results flagged for a closer look

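Of 40 combinations of gene and group, 3 held an array whose gap to its neighbour exceeded Dixon's 95% limit, where chance gives about 1 in 20. Col1a2 in the triple treatment read 3.37 in replicate 1 and at most 2.78 in the other 3 arrays. Col3a1 in the combination read 12.55 in replicate 2, with 11.91 as the next value. Dcn in the same array read 11.20, with 10.57 as the next value.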

How the results depend on the processing

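For the 10 genes and the called genes of the related lists, 1538 values kept their direction and side of the threshold under the settings tried, 304 lost a call, 24 gained one and 38 changed sign. Every value that changed sign belonged to a difference that had not passed, and the cause was not tested. Against saline, 0 of the 10 genes were called with SD-101, 4 with the combination and 3 with the triple treatment, 1 from SD-101 to the combination and 1 from the combination to the triple treatment. With 1 array left out the counts ran from 0 to 0, 2 to 6, 1 to 4, 0 to 1 and 0 to 1, in that order. Here and below, the share of all genes called in the same fit is not set beside the counts. A change in a count therefore cannot be read as particular to the 10 genes.

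With only the 2 groups compared in the fit, 0, 2, 1, 5 and 1 genes were called, in the same order. Array weights gave 1, 5, 4, 4 and 1, quantile normalization 0, 3, 3, 0 and 1, centring on array medians 0, 4, 3, 0 and 1, and leaving out genes with a mean under 4 gave 0, 3, 3, 0 and 1. limma-trend changed no count, and the mean of all probe sets raised the third to 4. The replicate block gave 0, 5, 3, 0 and 0, but the shared numbers were not borne out as a pairing, since 9 of 23 same-numbered pairs of arrays had r over 0.1 (range -0.465 to 0.584).

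Settings added after seeing the data moved the saline comparisons most. Without saline replicates 1 and 2 the first 3 counts were 2, 6 and 6, and without replicates 3 to 5 they were 0, 0 and 1. How the calls over all genes moved in these fits is not given. With the 18S covariate, which differed between groups and cannot be told apart from treatment, the counts were 0, 0, 1, 0 and 1. Without the 2 arrays of lowest T cell marker level, 1, 4 and 3 genes were called against saline and 0 from the combination to the triple treatment.

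Signs turned as follows. Without saline replicates 3 to 5, SD-101 against saline gave Col1a1 -0.23, Col1a2 -0.12, Col3a1 -0.50, Col5a1 -0.36, Col6a1 -0.57, Dcn -1.17 and Fn1 -0.83. The combination gave Lum 0.11, Dcn -0.12 and Fn1 -0.34, and the triple treatment gave Col1a2 -0.059, Dcn -0.45 and Fn1 -0.012. With the 18S covariate the combination against saline gave Lum 0.071 and Postn -0.015, and against SD-101 it gave Col1a1 -0.080, Col3a1 -0.20, Dcn -0.017, Aspn 0.25 and Fn1 -0.56. With array weights Postn was -0.011 in the combination against saline.

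With 1 array left out, SD-101 against saline ranged from -0.051 to 0.078 for Col1a2, -0.11 to 0.41 for Col5a1, -0.20 to 0.44 for Col6a1, -0.23 to 0.49 for Dcn and -0.25 to 0.96 for Fn1. The combination against saline ranged from -0.22 to 0.075 for Lum and -0.037 to 0.17 for Postn, and the triple treatment from -0.068 to 0.15 for Col1a2. From the combination to the triple treatment the range was -0.19 to 0.086 for Col3a1 and -0.38 to 0.16 for Col5a1.

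Centring and quantile normalization shifted the middle log2 difference over all genes by -0.035 to 0.040. Of the 10 genes nearest the set's mean, 7 were also nearest with group means subtracted. The number of arrays, 4 to 6 a group, and the wide spread of saline limit what can be called.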
